A study of Homo sapiens with 12 samples.

Results

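The 50 genes described here carry a cell through mitosis and its checkpoints: the cyclins, CDK1 and their activators, mitotic kinases, the spindle checkpoint, the anaphase machinery, the kinetochore, the chromosomal passenger complex, kinesins, spindle assembly factors, cytokinesis genes and chromosome structure genes. They form a list chosen by name and function, with no threshold on a measured value, at a time when results of these data were already known. Each was read by its brightest probe set, the one with the highest mean log2 intensity over the 12 arrays among the probe sets that carry its symbol alone, and all 50 were measured, out of 19775 genes with such a probe set. A probe set is a group of short probes for a stretch of a transcript. The cells were OCI-Ly7, an established human diffuse large B-cell lymphoma line. Treatment lasted 24 hours in 4 groups of 3 samples, lettered A, B and C: vehicle alone, ibrutinib at 1 μM, ibrutinib at 10 μM and PLS-123 at 1 μM. Ibrutinib binds covalently to Btk, a kinase that relays the signal of the B-cell receptor, and PLS-123 is the Btk inhibitor that the study set against it. All groups were the same unmodified line in the same medium, so that every value comes from a single lymphoma line. The labels name neither the vehicle nor whether samples of 1 group came from separate cultures. The p values therefore measure the spread between these samples, which may be technical, and the number of arrays limits the precision.

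As background, entry into mitosis is driven by cyclin B bound to CDK1, which is held inactive by phosphates that the CDC25 phosphatases remove. The spindle checkpoint keeps the anaphase-promoting complex (APC/C) idle until the kinetochore of every chromosome is attached to spindle fibres. The APC/C with its activator CDC20 then marks securin and cyclin B for destruction, separase opens the cohesin rings, and kinesins and cytokinesis proteins part the chromosomes and the daughter cells. Most of these genes are transcribed in a wave that peaks in G2 and mitosis, and their level in a dividing population follows both the share of cells in that phase and the RNA that each cell holds. In these bulk samples, fewer cells in mitosis and less RNA per cell cannot be told apart.

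All 50 genes had a mean log2 intensity above 3.87, the median of all probe sets, with means between 5.63 and 12.10. Probe sets under that median are called dim below. The 6 measured B-cell markers were likewise above the median, and with PLS-123 5 of them fell and 1 rose. Above it were also 1 of 8 T and NK cell markers, 2 of 6 myeloid markers and 2 of 8 stromal and epithelial markers. The brightest of these were CD3E, CSF1R and COL1A1 with mean log2 intensities of 4.17, 4.33 and 6.28, and none of these markers was called in any comparison against vehicle. The summed B-cell marker signal was 13.57 to 13.62 log2 units with vehicle, 13.54 to 13.59 with 1 μM ibrutinib, 13.25 to 13.27 with 10 μM ibrutinib and 13.15 to 13.25 with PLS-123. The summed level of the T and NK cell markers lay between 6.13 and 6.43 and that of the myeloid markers between 5.81 and 5.98 over the 4 groups, and that of the stromal and epithelial markers between 7.07 and 7.71. RNA integrity was judged by the ACTB difference, the log2 signal at the 3' end of this transcript minus that at its 5' end, which is larger where RNA is degraded. It was 2.59 to 2.68 on the vehicle arrays, 2.55 to 2.87 with 1 μM ibrutinib, 2.69 to 2.83 with 10 μM ibrutinib and 2.80 to 3.17 with PLS-123. The means of PLS-123 and 10 μM ibrutinib were 0.29 and 0.10 above vehicle without overlap (p = 0.1 each by a two-sided exact permutation test, which cannot go lower with 3 arrays against 3). The same difference for GAPDH was 0.27 to 0.35 with vehicle, 0.24 to 0.31 with 1 μM ibrutinib, 0.38 to 0.40 with 10 μM ibrutinib and 0.44 to 0.47 with PLS-123. By this measure PLS-123 lay above every other group and 10 μM ibrutinib above both remaining ones, again at p = 0.1 each by the exact permutation test. Array A of 1 μM ibrutinib stood apart, with an ACTB difference of 2.87 against 2.55 and 2.58 on its fellows. It also lay more than 0.3 log2 units above both fellows at 9 of the 50 genes: CCNA2, NEK2, SPC25, KIF11, KIF23, HMMR, CKAP2, ANLN and ECT2. Array B of that group lay as far below both fellows at CCNA2, BUB3, KIF23, ANLN and RACGAP1, and array A of PLS-123 was the highest of its 3 at 34 of the 50 genes. Calls that changed when 1 of these arrays was left out are given below with the gene.

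PLS-123 at 1 μM moved the mitosis genes in both directions. Against vehicle 12 of the 50 fell and 7 rose at an adjusted p under 0.05 in limma, with the largest fall for the kinase PLK1 (to 0.663 of the vehicle level) and the largest rise for the checkpoint kinase BUB1 (1.72-fold). The genes that fell were CCNB1, PLK1, AURKA, CDC20, PTTG1, ESPL1, CENPA, CENPE, CDCA8, KIF2C, TPX2 and MKI67. Those that rose were CDC25B, BUB1, KIF11, KIF14, KIF15, CKAP2 and TOP2A. Here 16.7% of all 54613 probe sets tested and 31.0% of the 12040 genes that are not dim were called, 19.8% lower and 11.2% higher. The 50 genes were called at 38%, which is near the 31.0% of the genes that are not dim. Those genes reach down to lower levels than the 50, whose lowest mean was 5.63, and no set matched for brightness was drawn. Their median log2 fold change was 0.01, against -0.06 over the genes that are not dim, and their median absolute log2 fold change was 0.24 against 0.20. Without overlap between the 3 arrays of each group, 12 of the 50 genes lay above vehicle and 20 below it, where 54.6% of the genes that are not dim did not overlap. With the methods' t-test CENPA, KIF14, KIF15 and CKAP2 lost their call. A further quantile normalization of the arrays gave 9 lower and 9 higher, and no call changed direction with it or with centring on control probe sets.

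RNA integrity moved with this comparison and with that of 10 μM ibrutinib, as given above. When the ACTB difference of each array was added to the model as a covariate, 4 genes stayed lower (AURKA, PLK1, CDC20 and TPX2) and 2 stayed higher (CDC25B and BUB1). The other 13 log2 fold changes kept their sign and missed the threshold, and the part of RNA integrity in them was not tested beyond this model.

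**Figure D1:**
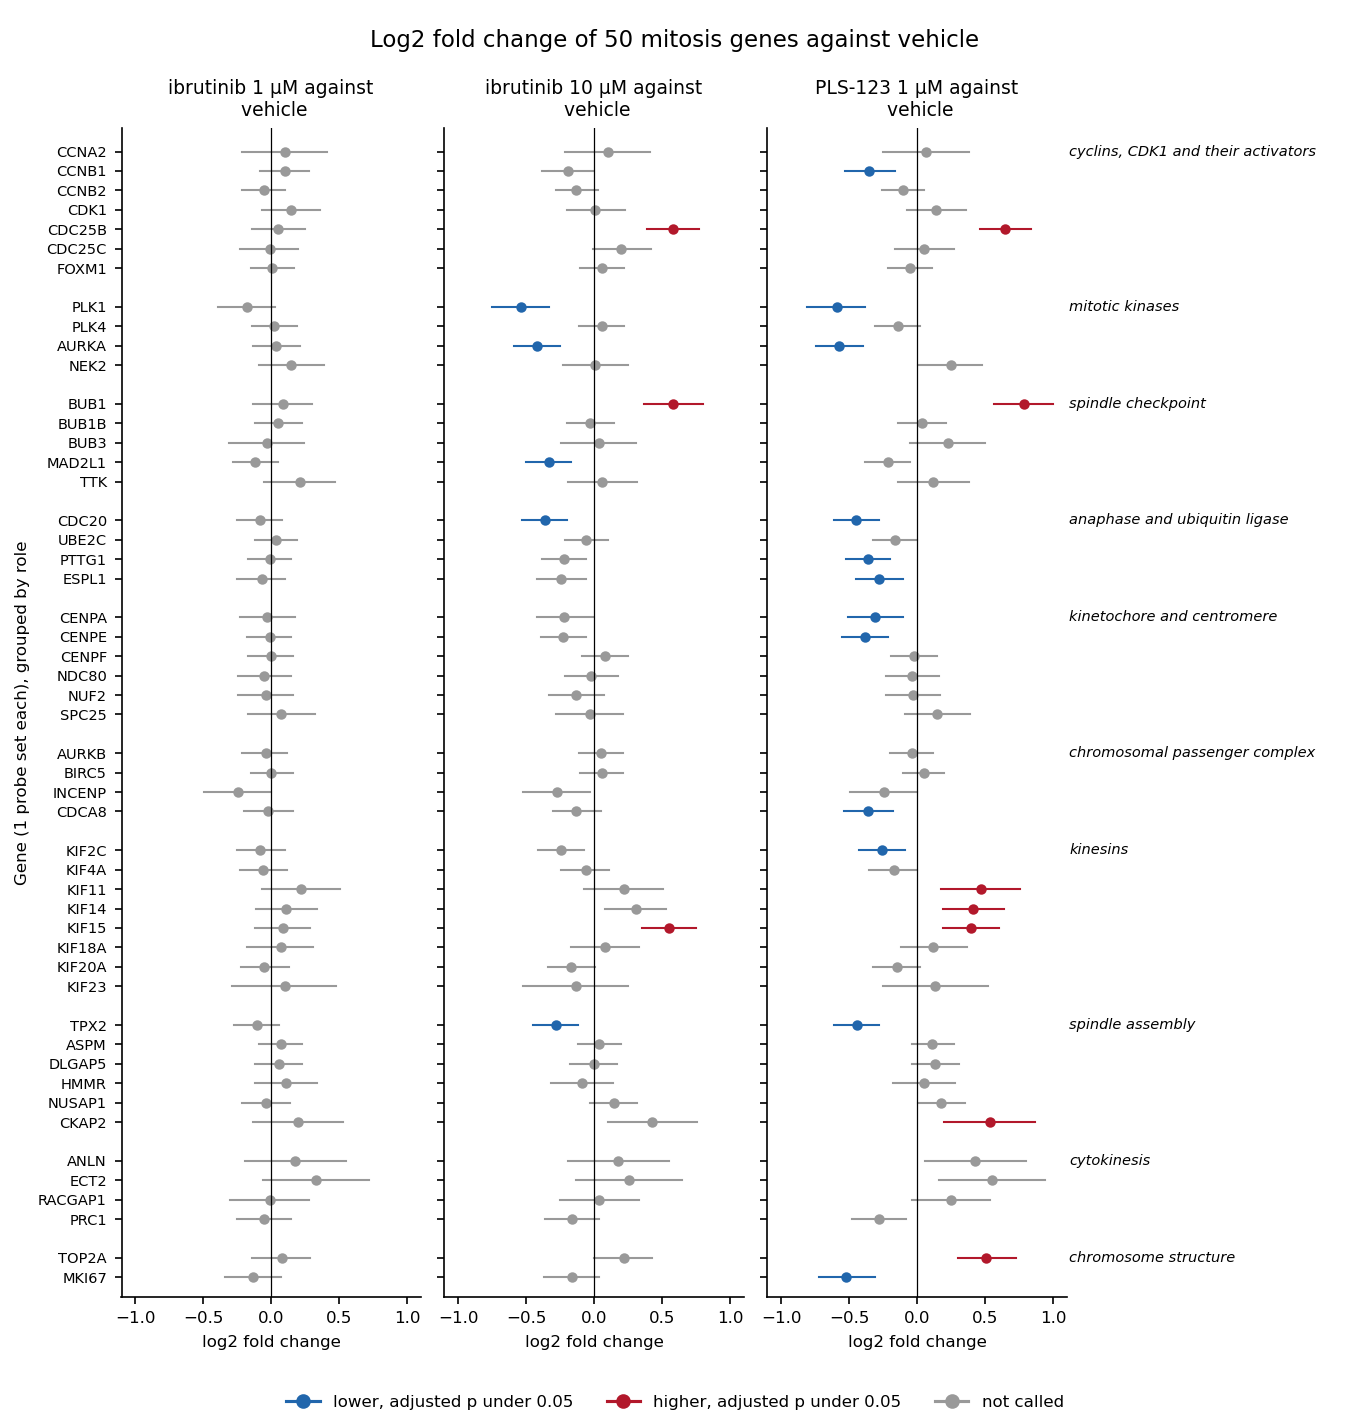
Log2 fold change against vehicle (x axis, with its 95% interval) of the 50 mitosis genes, grouped by role, for 1 μM ibrutinib, 10 μM ibrutinib and 1 μM PLS-123, with 3 arrays in each group. No gene is coloured for 1 μM ibrutinib, 5 are lower and 3 higher for 10 μM ibrutinib, and 12 are lower and 7 higher for PLS-123.

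The promoters of the genes show what the list shares in sequence. The cell-cycle homology region (CHR), with the core TTTGAA or TTCGAA, and the CCAAT box, which binds NF-Y, are known elements of genes expressed in G2 and mitosis. RefSeq promoter windows of 300 bases, from 250 before to 50 after the start in GRCh38.p14, were matched by symbol for 42 of the 50 genes, with 54 windows in all. FOXM1, AURKA, BUB3, TTK, UBE2C, BIRC5, TPX2 and RACGAP1 had no entry. On either strand, TTTGAA stood in 63% of the members' windows and in 15.2% of all 35116 windows, TTCGAA in 5.56% and 1.45%, and CCAAT in 72.2% and 34.6%. The 3 motifs differ in their letters and can overlap at their ends. The motifs did not divide the genes by direction: TTTGAA or TTCGAA was present for 6 of 10 genes that fell with PLS-123, 6 of 7 that rose and 21 of 25 that were not called, and CCAAT for 8, 5 and 21. A match describes the letters only.

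Below are the 200 bases before the start, 5' to 3' on the strand of the gene, of 3 genes that fell (PLK1, CDC20 and MKI67) and 3 that rose (KIF11, KIF15 and TOP2A). They are picked examples that all hold TTTGAA, and do not stand for all genes of their direction. TTTGAA alone was present for 6 of 10 genes that fell, 4 of 7 that rose and 21 of 25 that were not called. CCAAT is absent from the stretch of KIF15 alone. Capitals mark TTTGAA and CCAAT, which read TTCAAA and ATTGG where the match is on the other strand. PLK1 lies at chr16:23678689-23678888 (plus strand), CDC20 at chr1:43358781-43358980 (plus), MKI67 at chr10:128126424-128126623 (minus), KIF11 at chr10:92592930-92593129 (plus), KIF15 at chr3:44761594-44761793 (plus) and TOP2A at chr17:40417897-40418096 (minus). In PLK1 the TTTGAA begins 29 bases and the CCAAT 73 bases before the start. KIF11, which rose, holds its pair at 28 and 53 bases, and in MKI67 the TTTGAA at 29 bases overlaps the ATTGG at 24.
PLK1: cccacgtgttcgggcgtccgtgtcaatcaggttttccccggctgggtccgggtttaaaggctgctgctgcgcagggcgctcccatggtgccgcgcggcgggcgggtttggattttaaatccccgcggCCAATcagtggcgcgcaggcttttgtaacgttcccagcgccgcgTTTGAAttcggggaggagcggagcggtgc
CDC20: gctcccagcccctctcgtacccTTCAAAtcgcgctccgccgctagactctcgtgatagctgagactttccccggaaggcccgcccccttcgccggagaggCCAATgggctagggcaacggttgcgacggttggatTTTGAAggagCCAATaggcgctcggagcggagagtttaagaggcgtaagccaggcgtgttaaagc
MKI67: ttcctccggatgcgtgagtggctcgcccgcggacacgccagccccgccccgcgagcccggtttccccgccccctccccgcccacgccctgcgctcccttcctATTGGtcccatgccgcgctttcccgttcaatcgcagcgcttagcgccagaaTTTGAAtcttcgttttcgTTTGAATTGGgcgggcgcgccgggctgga
KIF11: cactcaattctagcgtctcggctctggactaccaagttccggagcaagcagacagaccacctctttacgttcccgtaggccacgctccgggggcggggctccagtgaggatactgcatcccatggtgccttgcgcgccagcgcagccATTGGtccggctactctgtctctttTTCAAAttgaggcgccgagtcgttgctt
KIF15: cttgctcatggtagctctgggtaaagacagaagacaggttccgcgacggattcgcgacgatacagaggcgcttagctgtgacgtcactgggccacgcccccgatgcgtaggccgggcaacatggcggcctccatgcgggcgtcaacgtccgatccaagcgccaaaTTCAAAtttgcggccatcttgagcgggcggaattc
TOP2A: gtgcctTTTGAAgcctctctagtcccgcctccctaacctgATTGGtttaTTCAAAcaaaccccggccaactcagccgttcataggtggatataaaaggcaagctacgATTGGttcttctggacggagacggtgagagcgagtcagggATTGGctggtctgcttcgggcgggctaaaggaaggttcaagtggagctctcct

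Among the 7 genes of cyclins, CDK1 and their activators, CDC25B rose and CCNB1 fell with PLS-123, and CDC25B alone was called with 10 μM ibrutinib. CDC25B is the phosphatase that starts the activation of cyclin B-CDK1. Its log2 intensity was 9.57, 9.67 and 9.65 with vehicle, 9.52, 9.82 and 9.71 with 1 μM ibrutinib, 10.14, 10.18 and 10.29 with 10 μM ibrutinib and 10.29, 10.23 and 10.31 with PLS-123. All arrays of 10 μM ibrutinib and PLS-123 lay above all arrays of the other groups, and the pair overlapped each other. The log2 fold change against vehicle was 0.65 ± 0.09 (SE; n = 3 arrays; adjusted p = 1.8e-04 in limma) with PLS-123 and 0.58 ± 0.09 (adjusted p = 6.3e-04) with 10 μM ibrutinib.

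CCNB1 encodes cyclin B1, the partner that turns CDK1 on. Log2 intensities of CCNB1 were 10.92, 10.91 and 10.82 with vehicle, 11.08, 10.93 and 10.95 with 1 μM ibrutinib, 10.61, 10.82 and 10.64 with 10 μM ibrutinib and 10.61, 10.48 and 10.51 with PLS-123. The PLS-123 arrays lay below all vehicle arrays, while 1 array of 10 μM ibrutinib reached the vehicle range. PLS-123 lowered CCNB1 to 0.785 of vehicle (log2 fold change -0.35 ± 0.09, adjusted p = 0.0125), and with 10 μM ibrutinib the log2 fold change was -0.19 (adjusted p = 0.204). The ACTB covariate left it at -0.38 with an adjusted p of 0.0805. A dimmer probe set of CCNB1, 228729_at, went the other way with PLS-123 (log2 fold change 0.32 ± 0.09, adjusted p = 0.0305), and CCNB1 was the only member with calls in both directions.

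The other 5 genes of this role were not called with PLS-123 by their brightest probe set. The log2 fold changes were -0.10 for CCNB2, the second B-type cyclin, 0.07 for CCNA2, the cyclin of S and G2 phase, and 0.14 for CDK1. CDC25C, a further CDK1-activating phosphatase, had 0.05 and FOXM1, a transcription factor for G2 and mitosis genes, had -0.05. CCNB2 lay below all vehicle arrays with PLS-123 on all 3 arrays, with an interval of -0.26 to 0.05. By the brightest probe set, cyclin B was thus called for CCNB1 and not for CCNB2. The other probe set of CCNB1 was called in the opposite direction, and the genes were not compared with each other.

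PLK1 and AURKA, 2 of the 4 mitotic kinases, fell under PLS-123 as well as under 10 μM ibrutinib. PLK1, polo-like kinase 1, drives mitotic entry, spindle formation and exit. Its log2 intensity was 8.0, 8.02 and 7.96 with vehicle, 7.65, 7.96 and 7.82 with 1 μM ibrutinib, 7.31, 7.47 and 7.57 with 10 μM ibrutinib and 7.47, 7.43 and 7.29 with PLS-123. Vehicle was the highest group, 1 μM ibrutinib reached down to 7.65 on array A, and the other groups lay below both and overlapped each other. Against vehicle the log2 fold change was -0.59 ± 0.10 (adjusted p = 8.7e-04) with PLS-123, -0.54 ± 0.10 (adjusted p = 0.0023) with 10 μM ibrutinib and -0.18 ± 0.10 (adjusted p = 0.92) with 1 μM ibrutinib.

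AURKA encodes Aurora A, the kinase of centrosomes and spindle poles that activates PLK1. Arrays read log2 intensities of 11.15, 11.06 and 11.13 with vehicle, 11.03, 11.22 and 11.19 with 1 μM ibrutinib, 10.65, 10.68 and 10.76 with 10 μM ibrutinib and 10.56, 10.51 and 10.56 with PLS-123. The 3 PLS-123 arrays were the lowest of all 12, below every array of 10 μM ibrutinib, and both sets lay below vehicle. On the log2 scale AURKA fell by 0.57 with PLS-123 (SE 0.08, adjusted p = 2.1e-04) and by 0.42 with 10 μM ibrutinib (SE 0.08, adjusted p = 0.00304). A further AURKA probe set, 204092_s_at, fell as well, by 0.37 and 0.47. PLK4, the kinase of centriole duplication, had a log2 fold change of -0.14 with PLS-123, and NEK2, a kinase of centrosome separation, had 0.25 (adjusted p = 0.249 and 0.16). Without array A of 1 μM ibrutinib NEK2 passed (adjusted p = 0.0327).

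In the spindle checkpoint, BUB1 rose under both PLS-123 and 10 μM ibrutinib, while MAD2L1 fell under 10 μM ibrutinib. BUB1 is a kinase that recruits checkpoint proteins to the kinetochore. Its log2 intensity was 9.24, 9.25 and 9.40 with vehicle, 9.56, 9.30 and 9.30 with 1 μM ibrutinib, 9.90, 9.98 and 9.77 with 10 μM ibrutinib and 10.17, 9.96 and 10.12 with PLS-123. Every array of PLS-123 and 10 μM ibrutinib was above every array of vehicle and 1 μM ibrutinib. BUB1 was 1.72-fold higher with PLS-123 (log2 fold change 0.79 ± 0.10, adjusted p = 9.9e-05) and 1.5-fold higher with 10 μM ibrutinib (0.58 ± 0.10, adjusted p = 0.00146). Its 4 other probe sets were not called with PLS-123, with log2 fold changes of 0.35, 0.34, -0.24 and 0.15. Of these, 215509_s_at and 215508_at rose with 10 μM ibrutinib, by 0.47 and 0.71 on the log2 scale.

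MAD2L1, the checkpoint protein that binds CDC20, had log2 intensities of 9.97, 10.06 and 10.10 with vehicle, 9.92, 9.90 and 9.96 with 1 μM ibrutinib, 9.75, 9.73 and 9.65 with 10 μM ibrutinib and 9.88, 9.87 and 9.75 with PLS-123. By this probe set all 9 treated arrays lay below the 3 vehicle arrays. MAD2L1 had a log2 fold change of -0.33 ± 0.08 (adjusted p = 0.0127) with 10 μM ibrutinib and of -0.21 ± 0.08 (adjusted p = 0.0804) with PLS-123. The PLS-123 value passed in limma with an intensity trend (0.00988), with centring on control probe sets (0.0459) and without dim probe sets (0.0236). The call under 10 μM ibrutinib was lost without vehicle array C or without 10 μM ibrutinib array C (adjusted p = 0.0591 and 0.0607). It was also lost with the median log2 intensity of its 3 probe sets on each array (-0.04, adjusted p = 0.949), which here reads the next brightest probe set. The next brightest, 203362_s_at, read 9.19, 9.32 and 9.64 with vehicle and 10.49, 9.76 and 9.88 with PLS-123, above vehicle on all 3 arrays (log2 fold change 0.66 ± 0.28, adjusted p = 0.135). The direction of MAD2L1 with PLS-123 thus differed between its probe sets. BUB1B, BUB3 and TTK, the remaining checkpoint genes, had log2 fold changes of 0.04, 0.23 and 0.12 with PLS-123, none of them called.

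The anaphase genes fell with PLS-123 at 3 of 4: CDC20, PTTG1 and ESPL1. CDC20 activates the APC/C at the start of anaphase. The 12 log2 intensities were 10.66, 10.75 and 10.70 with vehicle, 10.54, 10.65 and 10.66 with 1 μM ibrutinib, 10.27, 10.38 and 10.37 with 10 μM ibrutinib and 10.30, 10.28 and 10.19 with PLS-123. The last 2 groups overlapped each other and lay below all other arrays. CDC20 fell to 0.733 of vehicle with PLS-123 (log2 fold change -0.45 ± 0.08, adjusted p = 0.00117) and to 0.777 with 10 μM ibrutinib (-0.36 ± 0.08, adjusted p = 0.00712).

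PTTG1 encodes securin, the inhibitor that is destroyed to release separase. On the log2 scale its intensity was 12.27, 12.21 and 12.25 with vehicle, 12.20, 12.30 and 12.20 with 1 μM ibrutinib, 11.99, 12.06 and 12.03 with 10 μM ibrutinib and 11.92, 11.92 and 11.82 with PLS-123. The groups were ordered without overlap from vehicle to 10 μM ibrutinib to PLS-123. For PTTG1 the log2 fold change was -0.36 ± 0.07 (adjusted p = 0.00421) with PLS-123 and -0.22 ± 0.07 (adjusted p = 0.0874) with 10 μM ibrutinib. With the ACTB covariate the PLS-123 value was -0.30 (adjusted p = 0.0967). The probe set of PTTG1, 203554_x_at, is of a kind that may hold probes shared with near-identical sequences. So are those of CENPA (210821_x_at) and FOXM1 (202580_x_at), and further probe sets named below of CDK1 (203214_x_at), BIRC5 (210334_x_at) and ECT2 (234992_x_at). ESPL1, separase itself, fell with PLS-123 by 0.28 on the log2 scale (adjusted p = 0.0329). Its call was lost without any 1 of the 3 vehicle or the 3 PLS-123 arrays (adjusted p from 0.0508 to 0.117), after quantile normalization (0.102) and with the ACTB covariate (0.426). UBE2C, the ubiquitin-conjugating enzyme of the APC/C, had a log2 fold change of -0.16 (adjusted p = 0.175).

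**Figure D2:**
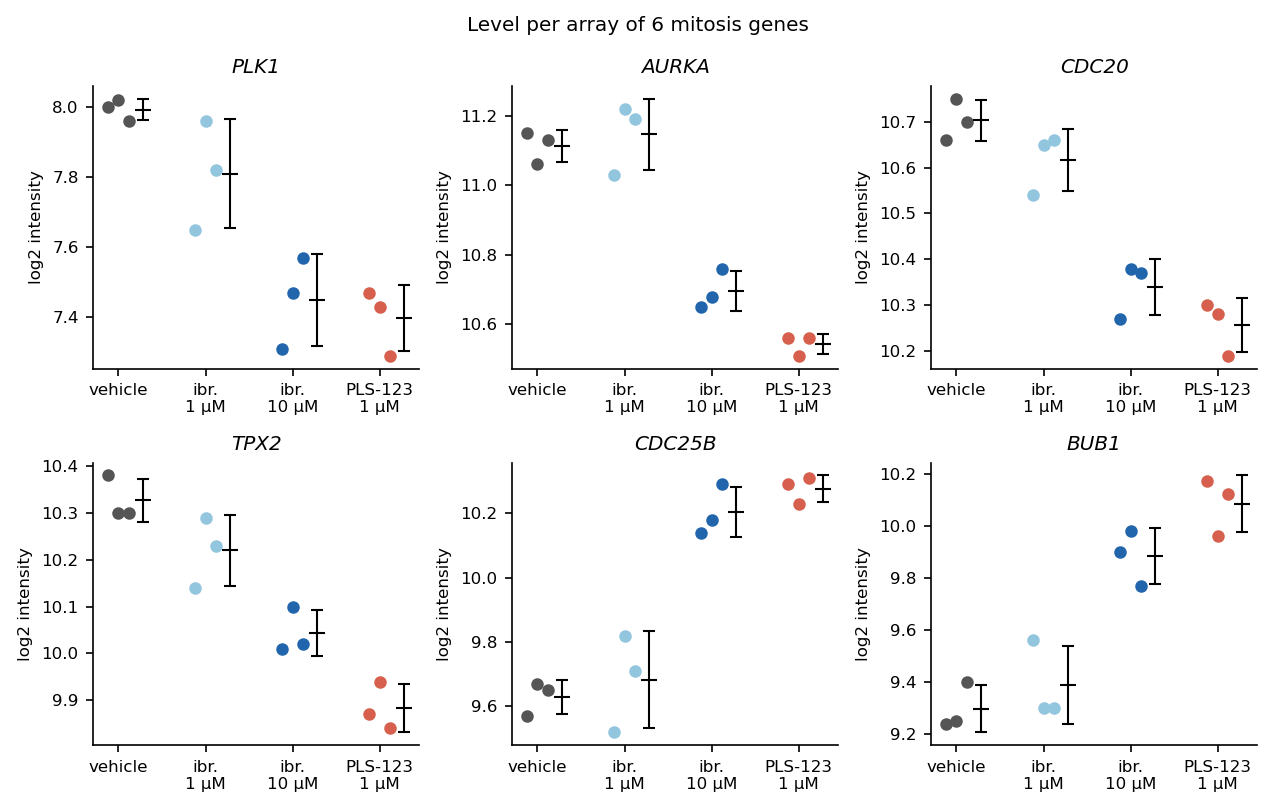
Log2 intensity (y axis) of each array for PLK1, AURKA, CDC20, TPX2, CDC25B and BUB1 in the 4 groups; points are the 3 arrays of a group, in the order A, B, C, and the bar beside them is their mean ± SD. In all 6 panels the arrays of 10 μM ibrutinib and PLS-123 lie on the same side of the vehicle arrays, and the axes do not start at 0.

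At the kinetochore, CENPE and CENPA fell with PLS-123 and the outer kinetochore complex did not pass the test. CENPE, a kinesin that carries chromosomes to the spindle equator, had log2 intensities of 9.07, 9.09 and 9.0 with vehicle, 8.96, 9.06 and 9.09 with 1 μM ibrutinib, 8.75, 8.90 and 8.82 with 10 μM ibrutinib and 8.67, 8.70 and 8.64 with PLS-123. The 3 PLS-123 arrays were the lowest 3 of the 12. The log2 fold change was -0.38 ± 0.08 (adjusted p = 0.00371) with PLS-123 and -0.23 ± 0.08 (adjusted p = 0.0869) with 10 μM ibrutinib.

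CENPA is the histone H3 variant that marks the centromere. CENPA read log2 intensities of 9.04, 9.06 and 8.96 with vehicle, 8.85, 9.05 and 9.08 with 1 μM ibrutinib, 8.79, 8.93 and 8.68 with 10 μM ibrutinib and 8.74, 8.80 and 8.59 with PLS-123. PLS-123 lay below vehicle without overlap and overlapped 10 μM ibrutinib. The log2 fold change of -0.31 ± 0.10 (adjusted p = 0.0406) lost its call without any vehicle array, without array A of 10 μM ibrutinib and without array A or C of PLS-123 (adjusted p from 0.0522 to 0.159), and after quantile normalization (0.0994). With the ACTB covariate CENPE had -0.31 (adjusted p = 0.0952) and CENPA -0.12 (adjusted p = 0.614). The log2 fold changes of NDC80, NUF2 and SPC25, subunits of the complex that grips microtubules, were -0.04, -0.03 and 0.15 with PLS-123, and that of CENPF, a large coat protein of the kinetochore, was -0.02.

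The chromosomal passenger complex corrects faulty attachments and later acts in cytokinesis, and 1 of its 4 subunits was called. CDCA8 (borealin) had log2 intensities of 9.78, 9.85 and 9.69 with vehicle, 9.65, 9.87 and 9.76 with 1 μM ibrutinib, 9.63, 9.69 and 9.63 with 10 μM ibrutinib and 9.48, 9.40 and 9.36 with PLS-123. The PLS-123 arrays were the lowest 3 of the 12. CDCA8 fell to 0.779 of vehicle (log2 fold change -0.36 ± 0.08, adjusted p = 0.00852), while its log2 fold change with 10 μM ibrutinib was -0.13 (adjusted p = 0.437). With the ACTB covariate the PLS-123 value was -0.25 (adjusted p = 0.212). AURKB, the kinase of the complex, had a log2 fold change of -0.04, BIRC5 (survivin) 0.05 and INCENP, its scaffold, -0.24 with an interval of -0.49 to 0.00.

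The 8 kinesins split in direction with PLS-123: KIF11, KIF14 and KIF15 rose, KIF2C fell, and 4 were not called. KIF11 is the motor that pushes the spindle poles apart. Its log2 intensity was 8.82, 8.65 and 8.68 with vehicle, 9.34, 8.71 and 8.77 with 1 μM ibrutinib, 8.96, 9.0 and 8.85 with 10 μM ibrutinib and 9.17, 9.16 and 9.24 with PLS-123. Array A of 1 μM ibrutinib was the highest of all 12, and the PLS-123 arrays lay above the other 8. The log2 fold change of PLS-123 was 0.47 ± 0.13 (adjusted p = 0.0274). The call was lost without vehicle array B or C or any PLS-123 array (adjusted p from 0.0547 to 0.0929) and with the ACTB covariate (0.22, adjusted p = 0.514).

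KIF14, a kinesin of late mitosis and cytokinesis, had log2 intensities of 8.45, 8.48 and 8.61 with vehicle, 8.73, 8.46 and 8.68 with 1 μM ibrutinib, 8.80, 8.78 and 8.89 with 10 μM ibrutinib and 9.12, 8.76 and 8.91 with PLS-123. PLS-123 and 10 μM ibrutinib overlapped each other and lay above vehicle. KIF14 had log2 fold changes of 0.41 ± 0.10 (adjusted p = 0.0145) with PLS-123 and 0.31 ± 0.10 (adjusted p = 0.0855) with 10 μM ibrutinib. Without vehicle array A or B or PLS-123 array A the PLS-123 call was lost (adjusted p from 0.0524 to 0.0631), and with the ACTB covariate the value was 0.33 (adjusted p = 0.226). Its further probe set, 236641_at, rose by 0.55 on the log2 scale (adjusted p = 0.00235).

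KIF15, a motor that can stand in for KIF11, was the kinesin that rose under both inhibitors. Arrays gave log2 intensities of 7.82, 7.69 and 7.59 with vehicle, 7.86, 7.83 and 7.67 with 1 μM ibrutinib, 8.15, 8.40 and 8.19 with 10 μM ibrutinib and 8.08, 8.06 and 8.15 with PLS-123. The highest arrays were those of 10 μM ibrutinib. KIF15 had log2 fold changes of 0.55 ± 0.09 (adjusted p = 0.00142) with 10 μM ibrutinib and 0.40 ± 0.09 (adjusted p = 0.00996) with PLS-123. The ACTB covariate left the PLS-123 value at 0.33 (adjusted p = 0.171).

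KIF2C takes microtubules apart at the centromere, and with PLS-123 it fell by 0.26 on the log2 scale (SE 0.08, adjusted p = 0.0408). This call was the least stable of the 19. It was lost without any vehicle or PLS-123 array, without array C of 1 μM ibrutinib and without array B or C of 10 μM ibrutinib (adjusted p from 0.0524 to 0.138), after quantile normalization (0.0953), on the 2 groups alone, with the sample letter as a block and with the ACTB covariate (0.47). Its other probe set, 211519_s_at, fell by 0.49 (adjusted p = 0.003). KIF4A, a chromosome arm motor, had a log2 fold change of -0.17, KIF18A, which shortens kinetochore fibres, 0.12, and KIF20A and KIF23, motors of the central spindle, -0.15 and 0.13. The interval of KIF23, -0.25 to 0.52, was among the widest, with array A of PLS-123 at 8.17 against 7.65 and 7.78.

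Of 6 spindle assembly genes, TPX2 fell and CKAP2 rose with PLS-123. TPX2 activates Aurora A and nucleates microtubules near chromosomes. Its log2 intensity was 10.38, 10.30 and 10.30 with vehicle, 10.14, 10.29 and 10.23 with 1 μM ibrutinib, 10.01, 10.10 and 10.02 with 10 μM ibrutinib and 9.87, 9.94 and 9.84 with PLS-123. The 4 groups were ordered without any overlap. TPX2 had log2 fold changes of -0.44 ± 0.08 (adjusted p = 0.00124) with PLS-123, -0.28 ± 0.08 (adjusted p = 0.0327) with 10 μM ibrutinib and -0.10 ± 0.08 (adjusted p = 0.92) with 1 μM ibrutinib. Under 10 μM ibrutinib the call was lost without any vehicle or 10 μM ibrutinib array (adjusted p from 0.0569 to 0.118) and with the ACTB covariate (0.0631).

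CKAP2, a protein of spindle microtubules, had log2 intensities of 8.97, 8.73 and 9.05 with vehicle, 9.51, 8.83 and 9.02 with 1 μM ibrutinib, 9.42, 9.41 and 9.22 with 10 μM ibrutinib and 9.65, 9.35 and 9.37 with PLS-123. PLS-123 and 10 μM ibrutinib lay above all vehicle arrays, and array A of 1 μM ibrutinib lay among them. CKAP2 had a log2 fold change of 0.54 ± 0.15 (adjusted p = 0.0286) with PLS-123. Its call was lost without vehicle array A or B or PLS-123 array A or C (adjusted p from 0.0537 to 0.121) and with the ACTB covariate (0.37, adjusted p = 0.384). The less spread probe set 230128_at rose by 0.66 ± 0.08 with PLS-123 and by 0.67 ± 0.08 with 10 μM ibrutinib (adjusted p = 5.2e-05 and 5.6e-05). The remaining spindle genes ASPM, DLGAP5, HMMR and NUSAP1 had log2 fold changes of 0.11, 0.13, 0.05 and 0.18 with PLS-123.

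None of the 4 cytokinesis genes was called in limma on all 12 arrays in any comparison against vehicle, although 3 of them had an unadjusted p under 0.05 with PLS-123 and passed under several alternatives. ECT2, the activator of RhoA at the cleavage furrow, had log2 intensities of 8.64, 8.54 and 8.78 with vehicle, 9.51, 8.66 and 8.78 with 1 μM ibrutinib, 8.92, 8.93 and 8.87 with 10 μM ibrutinib and 9.44, 8.98 and 9.18 with PLS-123. PLS-123 lay above vehicle without overlap, but the highest array was array A of 1 μM ibrutinib. The log2 fold change with PLS-123 was 0.55 ± 0.18 (adjusted p = 0.0525), and it passed with an intensity trend (0.0102), after quantile normalization (0.0279), with centring on control probe sets (0.0463) without dim probe sets (0.0332), with the sample letter as a block (0.0311) and on the 2 groups alone (0.0216). It also passed without array A or B of 1 μM ibrutinib (0.00476 and 0.0362) or array B of PLS-123 (0.0403). It was 0.25 with the ACTB covariate. The median intensity over the probe sets of ECT2, which is that of 234992_x_at, gave -0.23, of the opposite sign. Neither value was called. ANLN (anillin, the furrow scaffold) had 0.43 (adjusted p = 0.113), and passed on the 2 groups alone (0.0364), with an intensity trend (0.0417) and without array A or B of 1 μM ibrutinib (0.0382 and 0.0271). With 10 μM ibrutinib it passed by the methods' test alone (0.18, adjusted p = 0.0309). The other probe set of ANLN, 1552619_a_at, had the opposite sign with PLS-123 and was not called (-0.22, adjusted p = 0.192 in limma). PRC1, which bundles central spindle microtubules, had -0.28 (adjusted p = 0.0579). It passed with the methods' test (0.0487), an intensity trend (0.00727) and centring on control probe sets (0.0446). PRC1 also passed without dim probe sets (0.0231), without array A of 1 μM ibrutinib (0.024) and with 1 row fitted per gene (0.038). That last fit takes the median over a gene's probe sets, of which PRC1 has 1, so that its value was unchanged. RACGAP1, of the central spindle complex, had 0.25 (adjusted p = 0.248).

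The remaining role, chromosome structure, held a gene that fell and a gene that rose. MKI67 encodes Ki-67, the coat of mitotic chromosomes used to stain dividing cells. MKI67 read log2 intensities of 9.80, 9.86 and 9.77 with vehicle, 9.48, 9.82 and 9.72 with 1 μM ibrutinib, 9.59, 9.65 and 9.70 with 10 μM ibrutinib and 9.41, 9.20 and 9.26 with PLS-123. The PLS-123 arrays were the lowest 3 of the 12. MKI67 fell to 0.7 of vehicle with PLS-123 (log2 fold change -0.52 ± 0.10, adjusted p = 0.002), while the value with 10 μM ibrutinib was -0.16 (adjusted p = 0.363). The ACTB covariate left it at -0.40 (adjusted p = 0.0821). Its 3 other probe sets gave -0.29 (adjusted p = 0.0303), -0.07 and 0.19, so that the fall was not shared by all its probe sets.

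TOP2A, the topoisomerase that untangles chromosomes, had log2 intensities of 10.55, 10.60 and 10.73 with vehicle, 10.90, 10.51 and 10.70 with 1 μM ibrutinib, 10.88, 10.78 and 10.87 with 10 μM ibrutinib and 11.20, 11.04 and 11.18 with PLS-123. The PLS-123 arrays were the highest 3 of the 12. TOP2A rose 1.43-fold with PLS-123 (log2 fold change 0.51 ± 0.10, adjusted p = 0.0029), with 0.37 and an adjusted p of 0.117 under the ACTB covariate. A further probe set, 201292_at, rose by 0.60. The remaining probe set, 237469_at, is dim and had -0.34 with PLS-123, which was not called (adjusted p = 0.0685). With 10 μM ibrutinib the log2 fold change of the brightest probe set was 0.22 (adjusted p = 0.231).

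A gene's probe sets did not always move together. The 50 genes had 99 probe sets, 8 of them dim, and 26 genes had more than 1. With PLS-123, 23 of the 99 fell and 13 rose, and 7 genes that were not called by their brightest probe set had another that was. CCNA2 (203418_at, log2 fold change -0.44, adjusted p = 0.00196), CDK1 (210559_s_at and 203214_x_at, -0.36 and -0.39), NEK2 (211080_s_at, -0.50), BIRC5 (202094_at and 210334_x_at, -0.29 and -0.25), ASPM (232238_at, -0.54) and NUSAP1 (219978_s_at, -0.24) each had a probe set that fell. CENPF had a probe set that rose (209172_s_at, 0.66). For CCNA2, 203418_at read 9.59, 9.72 and 9.65 with vehicle and 9.25, 9.29 and 9.08 with PLS-123, without overlap, while the brightest probe set read 9.85, 9.78 and 9.86 against 10.03, 9.77 and 9.90. Of the 9 called genes with several probe sets, 3 had all of them called the same way: KIF2C, KIF14 and CKAP2. With the median log2 intensity of a gene's probe sets on each array in place of the brightest, CCNB1, BUB1, ESPL1 and MKI67 lost their call. Where in each transcript these probe sets lie was not analysed here.

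**Figure D3:**
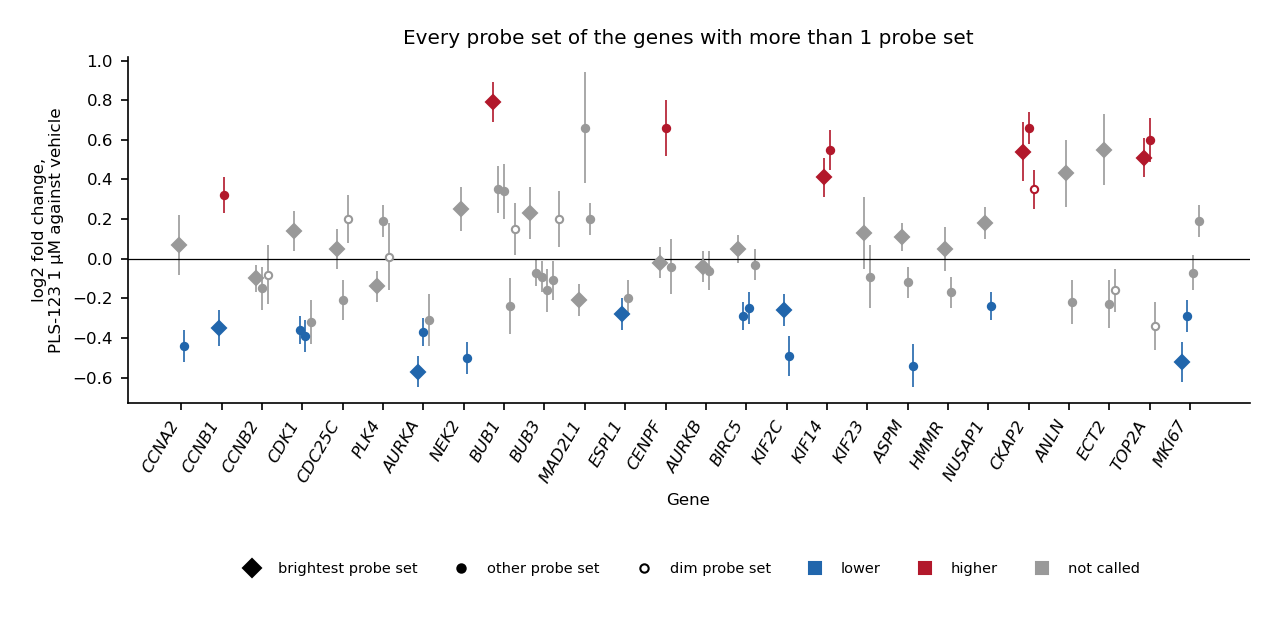
Log2 fold change of 1 μM PLS-123 against vehicle (y axis, bars are ± 1 SE) for every probe set of the 26 genes with more than 1; diamonds mark the brightest probe set, open circles dim ones, and colour the call. CCNB1 is the gene with a blue and a red mark, and CCNA2, CDK1, NEK2, BIRC5, ASPM and NUSAP1 have a grey diamond beside a blue circle.

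Ibrutinib at 10 μM called fewer of the 50 genes than PLS-123 did. Against vehicle 5 fell (PLK1, AURKA, MAD2L1, CDC20 and TPX2) and 3 rose (CDC25B, BUB1 and KIF15). Of all probe sets 10.0% were called in this comparison, and of the genes that are not dim 19.5% (9.03% lower and 10.4% higher), against 16% of the 50. The median log2 fold change was -0.01, as over the genes that are not dim, and single values ran from -0.54 for PLK1 to 0.58 for BUB1. No overlap with vehicle was seen for 14 genes above it and 17 below it, where 47.1% of the genes that are not dim did not overlap. The count of falls was 3 without vehicle array C or without 10 μM ibrutinib array C, 9 without dim probe sets and 10 with an intensity trend, which added CCNB1, PTTG1, ESPL1, CENPE and KIF2C. Without array A of 1 μM ibrutinib KIF2C (-0.24, adjusted p = 0.0478) and CKAP2 (0.43, adjusted p = 0.0312) were called as well.

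Ibrutinib at 1 μM called none of the 50 genes against vehicle in limma, as it called 0% of all probe sets. None reached an unadjusted p under 0.05, the smallest adjusted p was 0.92, and the methods' t-test and the intensity trend found 1 and 3 genes at an unadjusted p under 0.05 and none after adjustment. Log2 fold changes ran from -0.24 for INCENP to 0.33 for ECT2, with a median of 0.00. Compared with vehicle 1 gene lay above and 2 below without overlap, where 10.8% of the genes that are not dim did not overlap. PLK1 had an interval of -0.39 to 0.03 and AURKA of -0.13 to 0.21. The larger intervals belong to genes where array A stood above its fellows, such as CCNA2 (-0.21 to 0.41) and ECT2 (-0.06 to 0.72).

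At the matched dose of 1 μM the inhibitors differed at 13 of the 50 genes. Compared with ibrutinib, PLS-123 gave lower levels of CCNB1, PLK1, AURKA, CDC20, PTTG1, CENPE, CDCA8, TPX2 and MKI67 and higher levels of CDC25B, BUB1, KIF15 and TOP2A. In this comparison 12.5% of all probe sets and 24.6% of the genes that are not dim were called (16.1% lower and 8.54% higher), against 26% of the 50. The arrays of 43.5% of the genes that are not dim did not overlap. The largest differences were 0.70 ± 0.10 for BUB1 (adjusted p = 3.5e-04), -0.60 ± 0.08 for AURKA (adjusted p = 1.6e-04), 0.60 ± 0.09 for CDC25B (adjusted p = 4.9e-04) and -0.45 ± 0.09 for CCNB1 (adjusted p = 0.00319) on the log2 scale. For AURKA all 3 PLS-123 arrays (10.51 to 10.56) were below all 3 ibrutinib arrays (11.03 to 11.22). With the methods' t-test only 2 of the 13 calls stood, AURKA and CENPE, and the adjusted p was 0.0665 for BUB1, 0.0642 for CDC25B and 0.0538 for CCNB1.

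Several of these calls were lost when 1 array was left out, while the log2 difference kept its sign. In those fits it was -0.36 to -0.34 for PLK1, -0.32 to -0.29 for CDCA8, 0.34 for TOP2A, -0.37 to -0.31 for MKI67 and 0.25 to 0.33 for KIF15. PLK1 (-0.41, adjusted p = 0.0131) and CDCA8 (-0.34, adjusted p = 0.0143) lost their call without array B of 1 μM ibrutinib (adjusted p = 0.0656 and 0.0671) or array C of PLS-123 (0.0637 and 0.0611), and TOP2A (0.44, adjusted p = 0.0108) without array B of 1 μM ibrutinib (0.0529). MKI67 (-0.38, adjusted p = 0.0175) lost it without array B or C of either group (0.0629 to 0.0844). KIF15 (0.31, adjusted p = 0.0456) lost it without any PLS-123 array, without array B or C of 1 μM ibrutinib or vehicle and without array A or C of 10 μM ibrutinib (0.0501 to 0.175). Without array A of 1 μM ibrutinib 8 genes were higher in place of 4, the added ones being KIF11 (0.45, adjusted p = 0.00483), CKAP2 (0.53, 0.0165), ECT2 (0.48, 0.0226) and RACGAP1 (0.41, 0.0428). ESPL1 (-0.27, 0.0428), CENPA (-0.35, 0.0307) and PRC1 (-0.32, 0.0247) were then lower too. Without array B 2 genes were higher. With the ACTB covariate 2 were lower and 2 higher. The remaining 37 genes were not called, and for KIF11 the interval of the difference was -0.04 to 0.54, for CENPA -0.49 to -0.08 and for CCNB2 -0.21 to 0.11.

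Between 1 μM PLS-123 and 10 μM ibrutinib, where the doses differ, none of the 50 genes was called in limma, where 0.183% of all probe sets and 0.332% of the genes that are not dim were called (0.233% lower and 0.0997% higher) and 34.3% of the latter did not overlap. An unadjusted p under 0.05 was reached by 4 genes in limma and by 14 with the methods' t-test or an intensity trend. The intensity trend called MKI67 lower (-0.35, adjusted p = 0.0183) and TOP2A higher (0.30, adjusted p = 0.0376), where the values without the trend were 0.127 and 0.192. MKI67 had the smallest adjusted p, with PLS-123 arrays at 9.20 to 9.41 and 10 μM ibrutinib arrays at 9.59 to 9.70, and an interval of -0.56 to -0.14. For PLK1 the interval was -0.26 to 0.16, for CDC25B -0.12 to 0.26 and for BUB1 -0.01 to 0.42.

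Between the doses of ibrutinib 6 genes were called, with 7.61% of all probe sets and 15.1% of the genes that are not dim (7.02% lower and 8.11% higher). Of the latter 36.3% did not overlap. At 10 μM, PLK1 (-0.36), AURKA (-0.46) and CDC20 (-0.28) were lower than at 1 μM, and CDC25B (0.52), BUB1 (0.50) and KIF15 (0.46) were higher, all on the log2 scale. AURKA, CDC25B, BUB1 and KIF15 kept their calls without any 1 of the 12 arrays, and lost them with the methods' t-test (adjusted p = 0.0728, 0.112, 0.146 and 0.133), under which none of the 6 was called. PLK1 (adjusted p = 0.039) lost its call without any vehicle array, array B or C of 1 μM ibrutinib, array A or B of 10 μM ibrutinib or array B of PLS-123 (0.0501 to 0.161). CDC20 (adjusted p = 0.0413) lost it without any vehicle or 10 μM ibrutinib array, array B or C of 1 μM ibrutinib or array B of PLS-123 (0.0519 to 0.151). The comparisons share arrays, so calls that recur between them are not independent of each other.

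Further genes of the pathway were taken from lists by function. Their counts stand beside those of genes that are not dim, of which PLS-123 lowered 19.8% and raised 11.2% (31.0% in all). Of the same genes 10 μM ibrutinib lowered 9.03% and raised 10.4% (19.5% in all), and some list genes are dim. The ACTB covariate and the other alternatives were not run on these lists. Among 16 measured regulators of mitotic entry, namely brakes, phosphatases and their inhibitors, 7 (43.8%) fell and none rose with PLS-123, with a median log2 fold change of -0.21, against -0.06 over the genes that are not dim. Some of the 7 promote entry rather than restrain it, such as CDC25A and the PP2A inhibitors ENSA (-0.23) and ARPP19 (-0.24). CDC25A, a phosphatase that activates CDKs, fell by 0.55 on the log2 scale (adjusted p = 4.0e-04). PPP2R2D, a regulatory subunit of PP2A, fell by 0.33 (adjusted p = 0.00936) and CCNF (cyclin F) by 0.30 (adjusted p = 0.022). With 10 μM ibrutinib 2 of the 16 (12.5%) fell, CDC25A and the phosphatase CDKN3.

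Among 18 genes of the APC/C and its inhibitors, 6 (33.3%) fell and none rose with PLS-123, and 3 (16.7%) fell with 10 μM ibrutinib. Of the genes that are not dim 19.8% and 9.03% fell, and 31.0% and 19.5% were called in either direction. MAD2L1BP, which helps to take apart the checkpoint complex, fell by 0.69 (adjusted p = 1.3e-04). UBE2S, the enzyme that extends ubiquitin chains on APC/C substrates, fell by 0.35 (adjusted p = 0.00567) and CDC27, an APC/C subunit, by 0.53 (adjusted p = 0.0108). Of 31 other kinetochore and centromere genes, PLS-123 lowered 6 and raised 4, and 10 μM ibrutinib lowered 3 and raised 1. MAD1L1, the kinetochore anchor of MAD2, rose with PLS-123 by 1.03 on the log2 scale (adjusted p = 6.1e-06) and by 1.20 with 10 μM ibrutinib (adjusted p = 1.6e-06), the largest rises in these lists. CENPO and CENPQ, subunits of the same inner kinetochore complex, went apart, with -0.56 (adjusted p = 6.8e-04) and 0.66 (adjusted p = 0.00235).

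Of 22 condensin and cohesin genes PLS-123 lowered 5 and raised 1, and 10 μM ibrutinib lowered 4 and raised 1. WAPL, which releases cohesin from chromosomes, fell by 0.79 (adjusted p = 6.8e-06), SGO1 (shugoshin), which protects centromeric cohesin, by 0.70 (adjusted p = 1.5e-04), and STAG2, a cohesin subunit, rose by 0.47 (adjusted p = 0.00117). Of 30 other kinesins and spindle genes PLS-123 lowered 8 and raised 3, and 10 μM ibrutinib lowered 2 and raised 3. KIF3B, a motor subunit of kinesin-2, fell by 0.67 (adjusted p = 1.7e-04), BORA, the cofactor with which Aurora A activates PLK1, by 0.57 (adjusted p = 2.3e-04) and CKAP2L by 0.43 (adjusted p = 0.00168). Among 10 centriole genes none fell and NEDD1, which brings the gamma-tubulin ring complex to the centrosome, rose by 0.47 with PLS-123 (adjusted p = 0.0227). No gene of these lists was called with 1 μM ibrutinib in limma, and counts of genes at an unadjusted p under 0.05 were 0 to 2 a list.

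**Figure D4:**
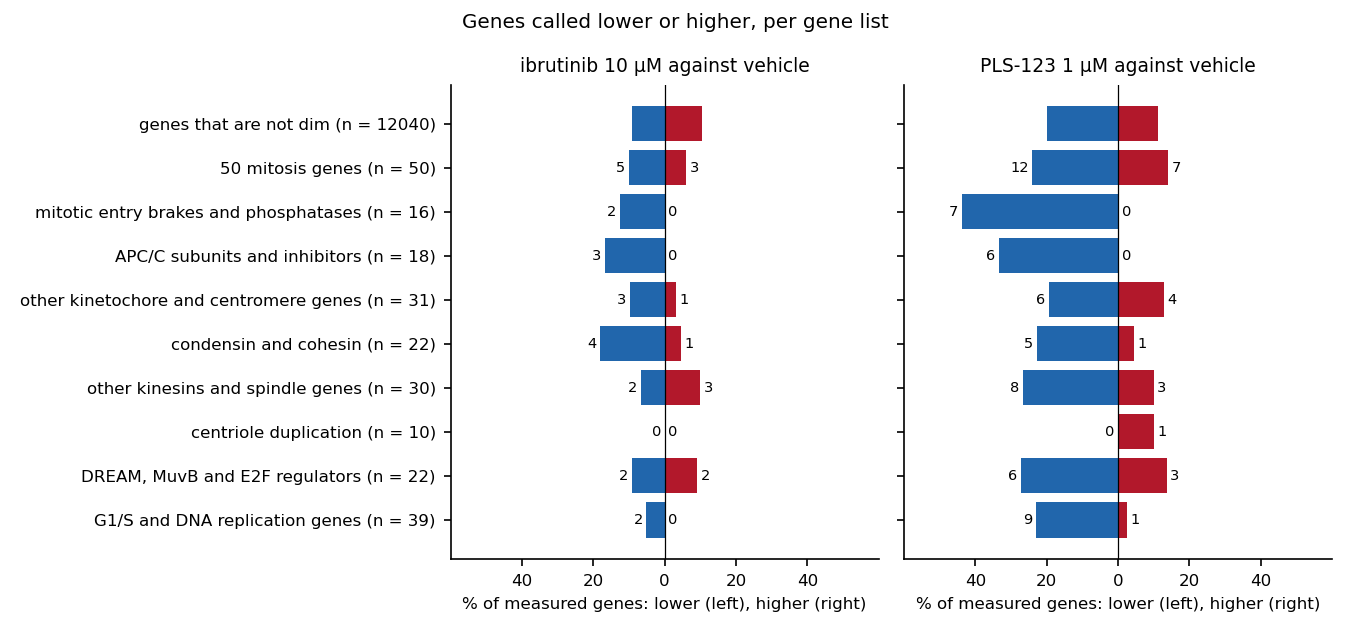
Share of the measured genes of each list called lower (left, blue) or higher (right, red) at an adjusted p under 0.05, in percent, for 10 μM ibrutinib and 1 μM PLS-123 against vehicle; the numbers are counts of genes and n is the number measured. With PLS-123 the list of mitotic entry brakes and phosphatases (7 of 16) and the APC/C list (6 of 18) hold falls and no rises, and the 50 mitosis genes hold 12 falls and 7 rises.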

How the data were processed

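RNA of 12 OCI-Ly7 samples was labelled as biotinylated cRNA and hybridized to Affymetrix U133 Plus 2.0 arrays, 1 sample an array. The authors normalized the arrays by RMA, per the labels (version not stated), and deposited intensities on the linear scale, from 2.1 to 15751, of which log2 was taken here with nothing added. RMA sets the single probes of all arrays to the same distribution before it combines them into probe sets. A change shared by most transcripts therefore cannot be seen. The probe set values need not share 1 distribution, and a further quantile normalization moved some counts. Of 54675 probe sets, 62 controls were left out and 54613 tested, of which 41091 carry 1 gene symbol, 1801 several and 11721 none. limma 3.58.1 (R 4.3.3) was fitted to 12 arrays with 1 mean per group and 8 residual degrees of freedom, and tested on simulated data. P values are two-sided, and adjusted by Benjamini-Hochberg over the probe sets of a comparison; a call is an adjusted p under 0.05, and intervals are 95%.

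The members and lists were chosen with earlier results of these data known, so no test over a list was made. All 50 members are named with their PLS-123 value, and values of every array are given for up to 2 called genes of each of the 10 roles with the largest log2 fold change of PLS-123 against vehicle, and for MAD2L1, ECT2 and KIF15, added after their values were seen. Of each further list up to 3 called genes with the smallest adjusted p are named; CDKN3, ENSA and ARPP19 were added after their values were seen. Alternatives were leaving out each array, the ACTB difference as a covariate, the t-test that the methods name, an intensity trend in limma, limma on only the 2 groups compared, a block for the sample letter, a further quantile normalization, centring on 100 normalization controls, dropping dim probe sets and the median over a gene's probe sets. That median was taken of the log2 intensities on each array, so that with 3 probe sets it mostly reads the one of middle brightness. Some genes of the lists are not reported here.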

Additional observations from a re-analysis of the deposited data

How the results depend on the processing

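Leaving out each array in turn moved the counts of lower and higher genes between 9 and 13 and between 4 and 10 for PLS-123 against vehicle, the low count of 4 without vehicle array B or PLS-123 array A. The ranges were 3 to 6 and 3 to 4 for 10 μM ibrutinib against vehicle, 6 to 12 and 2 to 8 for PLS-123 against 1 μM ibrutinib, and 1 to 3 and 3 for the doses of ibrutinib. Median log2 fold changes ranged from -0.03 to 0.03, -0.02 to 0.02 and -0.05 to 0.02 in the first 3 of these, from -0.09 to -0.01 between the doses and from -0.03 to 0.04 for PLS-123 against 10 μM ibrutinib. Calls kept without any 1 array were 13 of 19, 6 of 8, 8 of 13 and 4 of 6.

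The methods' t-test found 4 higher for PLS-123 against vehicle, 8 lower for 10 μM ibrutinib, 2 lower and 0 higher for PLS-123 against 1 μM ibrutinib, and 0 lower and 0 higher between the doses, where 14 genes had an unadjusted p under 0.05. The intensity trend gave 10 lower and 5 higher for 10 μM ibrutinib, 14 lower against 1 μM ibrutinib, 1 lower and 1 higher between PLS-123 and 10 μM ibrutinib, and 8 lower between the doses. Without dim probe sets the falls were 9 for 10 μM ibrutinib and 7 between the doses, as fewer probe sets were tested. On the 2 groups alone the falls between the doses were 1, and with centring on control probe sets 1.

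The ACTB covariate left 4 lower and 2 higher for PLS-123 against vehicle (median -0.04), 2 and 2 against 1 μM ibrutinib (median -0.05) and 1 lower between the doses. Quantile normalization moved the medians to 0.07, 0.05, 0.05 and -0.04 for PLS-123 against vehicle, 1 μM and 10 μM ibrutinib and between the doses. Centring moved them to -0.05, -0.04 and -0.06 for PLS-123, 10 μM and 1 μM ibrutinib against vehicle, to -0.01 for PLS-123 against 10 μM ibrutinib and to -0.03 between the doses, and shifted the median of all probe sets by under 0.1.

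With the median over a gene's probe sets, medians were -0.09, -0.05, -0.10 and -0.09 (PLS-123 and 10 μM ibrutinib against vehicle, PLS-123 against 1 μM ibrutinib, between the doses), 8 fell and 5 rose with 10 μM ibrutinib, 7 exceeded 1 μM ibrutinib under PLS-123 and 6 lower between the doses. Signs turned for CDK1 (-0.38), CENPF (0.66) and BIRC5 (-0.27) with PLS-123 and for CDK1 (-0.34) with 10 μM ibrutinib. Against 1 μM ibrutinib they turned for PLK4 (0.25), CENPF (0.42) and BIRC5 (-0.21). Genes with 1 probe set kept their value, and only their adjusted p changed, as the fit and adjustment then held 1 row a gene. PTTG1 (-0.22, adjusted p = 0.0473) and CENPE (-0.23, adjusted p = 0.0489) were called in this way with 10 μM ibrutinib. The median intensity reads the probe sets of middle brightness and is no median of fold changes. For CENPF it is that of 209172_s_at, while its brightest probe set gave -0.02 and its dimmest -0.04 with PLS-123. For CDK1 the median lies between 210559_s_at and 203214_x_at, with -0.36 and -0.39 with PLS-123. For BIRC5 it lies between 202094_at and 210334_x_at, with -0.29 and -0.25. For PLK4 it is 204886_at, at 6.47, 6.24 and 6.42 with 1 μM ibrutinib and 6.62, 6.72 and 6.55 with PLS-123. Why probe sets of the same gene differ was not tested.

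Residuals of arrays with the same letter correlated between -0.255 and 0.224, and 2 arrays had their best match at the same letter. By this measure the letters did not pair the arrays, but pairing over the mitosis genes alone was not tested. At CCNA2, TTK, KIF23, ANLN, ECT2 and RACGAP1 the arrays of 1 μM ibrutinib and of PLS-123 shared the order A, C, B from highest to lowest. These genes were picked after their values were seen, and others, such as MKI67, did not share an order between these groups. The letter as a replicate block gave 11 lower and 8 higher for PLS-123 against vehicle and 1 lower between the doses. What limits these results is 3 arrays a group, RNA integrity that moved under 10 μM ibrutinib and PLS-123, and probe sets of a gene that disagree.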

Other observations

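Genes upstream of mitosis were read as well. Of 22 measured regulators of the DREAM and MuvB complexes and the E2F family, which switch cell-cycle genes on and off, PLS-123 lowered 6 and raised 3 (40.9%). With 10 μM ibrutinib 2 fell and 2 rose (18.2%). Of the genes that are not dim 31.0% and 19.5% were called. E2F7, a repressor of the family, rose with PLS-123 by 0.79 on the log2 scale (SE 0.07, adjusted p = 5.0e-06 in limma) and by 0.84 with 10 μM ibrutinib (adjusted p = 3.2e-06). E2F2, an activator, fell by 0.69 (adjusted p = 1.3e-04) and 0.41 (adjusted p = 0.00972), and TFDP2, a partner of E2F proteins, fell by 0.48 with PLS-123 (adjusted p = 0.00109). The CCAAT-binding subunits NFYA and NFYC fell with PLS-123, by 0.37 and 0.25, while NFYB rose by 0.40. The naming of NFYA, NFYB and NFYC was decided after their values were seen.

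Of 39 measured genes of G1/S and DNA replication, PLS-123 lowered 9 and raised 1, and 10 μM ibrutinib lowered CCNE1 and TK1. CCNE1 (cyclin E1) fell by 0.70 with PLS-123 (adjusted p = 4.5e-05) and by 0.43 with 10 μM ibrutinib (adjusted p = 0.003). CHAF1A, of the chromatin assembly factor, fell by 0.45 (adjusted p = 0.00145) and GINS3, of the replicative helicase, by 0.43 (adjusted p = 0.00154). The gene that rose was UHRF1, which maintains DNA methylation, by 0.32 (adjusted p = 0.0187). This list was called at 25.6% with PLS-123 and at 5.13% with 10 μM ibrutinib, in each case below the genes that are not dim (31.0% and 19.5%).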
